A study of Homo sapiens with 24 samples.

Results

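The gene expression difference between MOLM-14 cells that received ABT-869 together with SAHA and MOLM-14 cells that received SAHA alone is described here, that is, what the kinase inhibitor added once the histone deacetylase inhibitor was present. The comparison was made up of the 3 arrays titled MOLM-14 Combination and the 3 arrays titled MOLM-14 SAHA, 6 of the 24 arrays in the series, and all 54613 probe sets other than the array's own control probe sets were tested. A probe set is a group of short probes on the Affymetrix U133 Plus 2.0 array that reads 1 transcript, and several probe sets may read the same gene. MOLM-14 is an established line of acute myeloid leukemia with monocytic features that carries FLT3 with an internal tandem duplication (ITD) on an allele beside a wild-type FLT3 allele. Every group was cultured in RPMI1640 with serum and treated for 24 hours. The SAHA group received SAHA at 6 µM, the ABT-869 group received ABT-869 at 3 nM, the DMSO group received the solvent, and the Combination group received both drugs, whose doses in the mixture are not restated in the methods. MV4-11, a related line in which only the FLT3-ITD allele is expressed, was treated in the same 4 ways and is used below for the difference between the lines. There were 3 biological replicates per group, and each line stands for 1 culture lineage rather than for a set of leukemias.

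ABT-869 is a small-molecule inhibitor of receptor tyrosine kinases of the VEGF and PDGF receptor families, to which FLT3 belongs. FLT3-ITD signals without its ligand, and it is known for driving STAT5, which switches on genes such as the PIM kinases, CISH and the SOCS feedback proteins, and for driving the RAS-ERK and PI3K-AKT pathways, which act on immediate early genes and, through mTOR and the SREBP transcription factors, on genes of cholesterol and fatty acid synthesis. SAHA (vorinostat) inhibits histone deacetylases, so that acetyl groups build up on histones and other proteins and the expression of many genes shifts. In these arrays, the Combination differs from SAHA by the presence of the kinase inhibitor, and both groups received SAHA. That the SAHA dose was the same in both is assumed here, since the doses in the mixture are not restated.

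Adding ABT-869 to SAHA lowered enzymes of cholesterol synthesis, some genes known to lie downstream of STAT5 and ERK (SOCS1, CISH, CCND3 and EGR1), the chemokine CCL5 and the chemokine receptor CCR1, while the called rises were fewer and mostly of weakly expressed probe sets. With limma's moderated test and a Benjamini-Hochberg adjusted p under 0.05, which is meant by called throughout, 141 probe sets were lower with the Combination (0.258% of those tested) and 57 were higher (0.104%). At an unadjusted p under 0.05, 2039 were lower (3.73%) and 3348 were higher (6.13%). At least 2-fold differences were found for 18 of the lower and 17 of the higher calls. In all 141 falls and all 57 rises the arrays of the groups did not overlap, so a lack of overlap adds nothing to a call. Over all probe sets such a separation was seen downwards in 5.12% and upwards in 8.72%. The falls were seen in well-expressed genes: their median signal went from 2300 in SAHA to 1440 in the Combination, and 9 of 141 lay at or below the median level of all probe sets. The rises had a median signal of 34.5 in SAHA and 98.3 in the Combination, and 30 of 57 lay at or below that median level, which was a signal of 65.7. Signals are linear array intensities and carry an array noise floor, so values under 32 were set to 32 before the log2 was taken, and a difference that starts or ends there is a low estimate of the change.

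The 6 arrays differed in overall level before any gene was considered. The median signal was 61.2 to 65.1 on the SAHA arrays and 75.0 to 80.6 on the Combination arrays, against 69.2 to 79.3 with DMSO and 73.3 to 76.5 with ABT-869. The share of probe sets under 32 was 34.9 to 36.4% with SAHA and 29.5 to 30.7% with the Combination, and the median log2 difference over all probe sets was 0.03. The part of this shift in the rises of dim probe sets was not tested. Under quantile normalization the calls numbered 33 higher and 152 lower, among them 25 of the 57 rises and 118 of the 141 falls. With the arrays centred, 42 of the rises and 139 of the falls were kept. With SAHA replicate 2 left out, 37 probe sets were called in all, against 76 without SAHA replicate 1 and 63 without SAHA replicate 3. Those 37 held 3 of the 57 rises and 25 of the 141 falls. In a fit of only the 6 arrays compared, 75 were called, among them 7 of the 57 rises and 21 of the 141 falls. With a floor of 1 in place of 32, 8 were called, among them 2 of the rises and 2 of the falls. The 198 calls included 25 that were kept in each of the 12 fits that left out 1 array, 23 lower and 2 higher, and all 198 had the same sign in each of those fits. The correlation of log2 signals was 0.967 to 0.987 between arrays of a group and 0.965 to 0.981 between SAHA and Combination arrays.

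**Figure D1:**
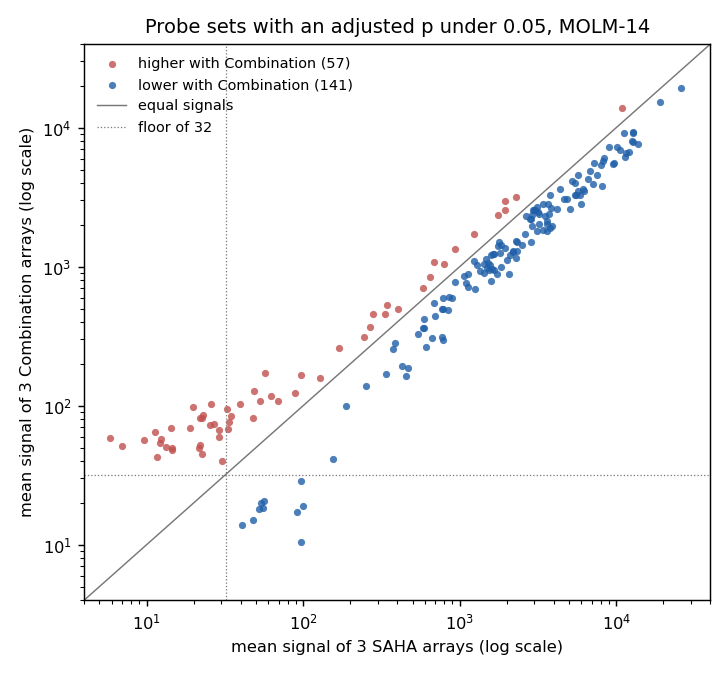
Mean signal of the 198 called probe sets in the 3 MOLM-14 SAHA arrays (horizontal axis, log scale) and in the 3 MOLM-14 Combination arrays (vertical axis, log scale), 1 point per probe set. The 141 falls lie mostly at high signals, with a median of 2300 in SAHA, and the 57 rises mostly at low ones, with a median of 34.5.

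Markers of the labelled type summed far above those of other types in both groups, though a few genes made up most of that sum. Of 13 marker genes of monocytic acute myeloid leukemia 11 were measured by a probe set naming that gene alone. Their summed signal was 50810 to 54730 in SAHA and 53510 to 55060 in the Combination, with LYZ, CEBPA and FLT3 high and ANPEP and FCGR1A near the floor. MPO had a mean of 376.4 in SAHA and 340.7 in the Combination, against 2336 with DMSO. The summed signals of T cell, B cell, NK cell, erythroid, megakaryocyte, epithelial and fibroblast markers were at most 1013 on any of the 6 arrays. Among these, KRT18 (mean 828.4 in SAHA) and PAX5 (471.6) read above MPO. None of the markers was called, where 0.258% of all probe sets were called lower and 0.104% higher. The fibroblast sum was 282.8 to 324.1 in SAHA and 351.3 to 500.8 in the Combination, and the NK cell sum was 26.9 to 98.3 in SAHA and 20.1 to 24.7 in the Combination. In bulk RNA, fewer cells of a type and less RNA per cell cannot be told apart.

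Genes of cholesterol synthesis and other SREBP targets had lower signals with the Combination than with SAHA, and those that passed the test included enzymes from the start and from the end of the sterol pathway. The list of cholesterol and SREBP target genes holds 32 genes, of which 25 had a probe set naming them alone, and each gene was read from its brightest probe set on average across the 12 MOLM-14 arrays. All 25 lay below 0, 10 were called lower and 0 higher, and the median log2 difference was -0.64, against 0.03 over all probe sets. The share below 0 was 31.6% of all probe sets and 43.1% of those above the median level. In 24 of the 25 the 3 Combination arrays lay below all 3 SAHA arrays, a separation seen downwards in 5.12% and upwards in 8.72% of all probe sets tested. The 10 were the sterol synthesis genes HMGCS1, MVK, IDI1, SQLE, MSMO1, SC5D, DHCR7 and ACAT2, the carrier gene STARD4 and the desaturase gene FADS2. Over all 56 probe sets of these genes, 19 from 12 genes were called lower and 0 higher, INSIG1 and SCD being the genes added. On the whole array 0.258% of probe sets were called lower and 0.104% higher.

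At the head of the mevalonate pathway, HMGCS1 makes HMG-CoA from acetoacetyl-CoA. HMGCS1 had signals of 5996.1, 6549.3 and 5310.2 in the SAHA arrays and 3638, 2409.1 and 2481.8 in the Combination arrays, so the groups did not overlap although replicate 1 of the Combination was the highest of its group. The log2 difference was -1.09 with a standard error (SE) of 0.172 (adjusted p = 0.0491). This call was close to the threshold and was kept in 1 of the 12 fits that left out an array, with an adjusted p of up to 0.161. MVK, mevalonate kinase, read 1397.9, 1449.1 and 1466.1 in SAHA and 878.3, 911.4 and 922.8 in the Combination. The MVK arrays were tight within each group and far apart between them (log2 difference -0.67, SE 0.0426, adjusted p = 0.00346), and the call was kept whichever array was left out. IDI1, which isomerizes the isoprenoid unit, had 11738, 11900 and 11174 in SAHA and 6641.5, 6254.2 and 6824.3 in the Combination by the probe set with the tighter arrays (log2 difference -0.82, SE 0.0756, adjusted p = 0.00779).

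The enzymes that build and finish the sterol ring moved in the same direction. SQLE, squalene epoxidase, read 8808, 10355 and 9370.7 in SAHA and 5633.3, 5566.4 and 5368.6 in the Combination (log2 difference -0.78, SE 0.0541, adjusted p = 0.00351). MSMO1, which removes methyl groups from the ring, read 8106.6, 8722.1 and 7631.4 in SAHA and 4491.7, 2993.6 and 3975.2 in the Combination (log2 difference -1.11, SE 0.155, adjusted p = 0.0319). SC5D and DHCR7 carry out late steps of the pathway and were also called. SC5D went from 3468.8, 3571.7 and 3559.5 to 2383.5, 2177.8 and 2358.1 (log2 difference -0.62, adjusted p = 0.00779). DHCR7, the last reductase of the pathway, went from 3640.6, 4072.2 and 3897.5 to 1853, 2026.8 and 2055.9 (log2 difference -0.97, SE 0.0737, adjusted p = 0.00413). Every Combination array was below every SAHA array for both genes, as in every probe set called lower. The calls of SQLE, SC5D, DHCR7 and IDI1 by these probe sets were kept in all 12 fits that left out an array, while that of MSMO1 was kept in 5 and reached an adjusted p of 0.117.

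Regulators and fatty acid genes under SREBP control were lower as well. INSIG1, which holds the SREBP complex in the endoplasmic reticulum and is itself an SREBP target, read 5907.4, 6714.4 and 6109.7 in SAHA and 3427, 3385 and 3737.8 in the Combination (log2 difference -0.83, SE 0.08, adjusted p = 0.00967). The other 2 INSIG1 probe sets gave -0.71 and -0.44. FADS2, a fatty acid desaturase, read 1506.8, 1553 and 1584.5 in SAHA and 907.8, 1017.5 and 939.2 in the Combination (log2 difference -0.70, adjusted p = 0.0283), and SCD, the stearoyl-CoA desaturase, differed by -0.82 (adjusted p = 0.0486) by a probe set that was called and by -0.29 by another that was not. STARD4, a cholesterol carrier, went from 3245.7, 3561.3 and 2895.8 to 2194, 1881 and 1990.3 (log2 difference -0.68, adjusted p = 0.0293). Every STARD4 array of the Combination lay below the SAHA arrays, which holds for every called fall. Further genes of these routes, named after their values were seen, were also called lower: ACLY, which makes cytosolic acetyl-CoA from citrate, at -0.49 (adjusted p = 0.0091), ACSS2, which makes it from acetate, at -0.95 (adjusted p = 0.0403), ERG28, a scaffold of sterol enzymes, at -0.75 (adjusted p = 0.00779), and TMEM97, a sterol-responsive membrane protein, at -0.66 (adjusted p = 0.0302). Members of the list that did not pass included LSS at -0.70 (adjusted p = 0.0552), ELOVL6 at -0.74 (adjusted p = 0.138), FDPS at -0.42, and the transcription factors SREBF2 at -0.40 and SREBF1 at -0.39, with PMVK the smallest at -0.04. The calls of INSIG1, ACLY and ERG28 by the probe sets given were kept in all 12 fits that left out an array. Those of STARD4, FADS2, TMEM97, ACSS2 and SCD were kept in 6, 5, 3, 2 and 1, with adjusted p-values of up to 0.0962, 0.0998, 0.0977, 0.127 and 0.158.

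**Figure D2:**
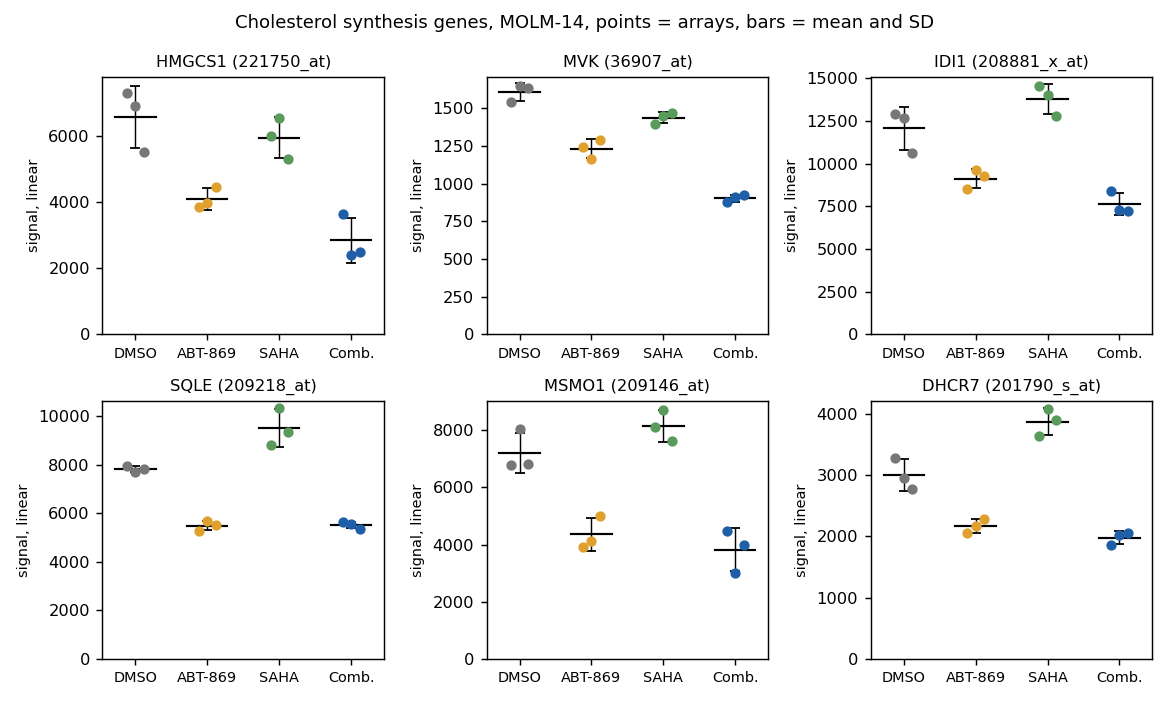
Signal on each of the 12 MOLM-14 arrays (vertical axis, array intensity) for cholesterol genes, grouped by treatment, with 1 point per array and bars for the group mean and SD (n = 3), IDI1 being drawn for its brighter probe set. The Combination points of DHCR7 lie at 1853 to 2055.9 and those of SAHA at 3640.6 to 4072.2.

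The promoters of 3 called genes are shown because they hold the CCAAT box, the letters bound by the factor NF-Y, which is known to act beside SREBP at sterol genes. The sequences are from RefSeq on GRCh38.p14, the 250 bases before the annotated transcript start on the strand named, and capitals mark CCAAT or its reverse complement ATTGG.

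MSMO1 chr4:165327419-165327668, plus strand: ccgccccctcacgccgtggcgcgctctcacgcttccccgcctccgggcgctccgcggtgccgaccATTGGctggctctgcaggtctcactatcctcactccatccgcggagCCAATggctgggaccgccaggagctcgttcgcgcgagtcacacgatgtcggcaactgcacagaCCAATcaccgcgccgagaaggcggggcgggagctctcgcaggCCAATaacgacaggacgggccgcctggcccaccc
HMGCS1 chr5:43313413-43313662, minus strand: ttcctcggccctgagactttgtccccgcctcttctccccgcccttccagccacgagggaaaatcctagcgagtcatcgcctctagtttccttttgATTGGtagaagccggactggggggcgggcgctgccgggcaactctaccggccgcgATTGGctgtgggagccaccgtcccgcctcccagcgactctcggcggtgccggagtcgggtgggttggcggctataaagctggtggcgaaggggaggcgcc
SC5D chr11:121292521-121292770, plus strand: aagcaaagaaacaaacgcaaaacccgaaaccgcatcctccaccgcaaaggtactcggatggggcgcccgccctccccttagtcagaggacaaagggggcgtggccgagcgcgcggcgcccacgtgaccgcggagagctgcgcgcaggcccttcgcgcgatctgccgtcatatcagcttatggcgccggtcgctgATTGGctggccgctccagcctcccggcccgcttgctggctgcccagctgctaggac

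Counted from the transcript start, the first bases of these matches lay at -185, -139, -76 and -34 in MSMO1, at -155 and -100 in HMGCS1 and at -56 in SC5D. CCAAT was found on either strand in the promoter window of 18 of 22 cholesterol genes with a window (81.8%), and in 10102 of all 27305 genes with a window (37.0%). The same letters were in 22 of 36 DNA replication genes (61.1%) and 4 of 12 STAT5 targets (33.3%). The sterol regulatory element core TCACNCCAC was in 1 of the 22 (SREBF2, 4.55%) and in 1.09% of all genes. With a base freed, as TCACNCNAC, which takes in the first form, it was in 4 of the 22 (FDPS, HSD17B7, SREBF2 and FADS2, 18.2%) and in 2.48% of all genes. These are matches of letters in short windows and no binding was measured.

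ABT-869 without SAHA gave a difference of the same direction with a smaller median in these genes, from arrays that the comparison above did not use. In ABT-869 against DMSO, 4 of the 25 cholesterol genes were called lower and 0 higher, with 85 probe sets called lower (0.156%) and 71 called higher (0.13%) over the whole array. The median of the 25 was -0.40, and 23 of 25 lay below 0, as did 51.9% of all probe sets above the median level. DHCR7 read 3283.1, 2945.1 and 2771.6 with DMSO and 2049.9, 2175.2 and 2279.5 with ABT-869, and SQLE read 7943.2, 7705.3 and 7814 with DMSO and 5280.1, 5666.1 and 5526 with ABT-869. The SAHA arrays of both genes were above the DMSO arrays, while their Combination arrays lay within or below the range of ABT-869 alone. The departure from additivity, the difference between adding ABT-869 to SAHA and adding it to DMSO, had a median of -0.27 in the list and was called for 0 of its 25 genes. It was called for 0.0256% of all probe sets. In MV4-11 the same addition to SAHA gave a median of -0.83 with 18 of 25 called lower and 0 higher, where 3.13% of all probe sets were called lower and 2.92% higher. The difference between the lines was called for 2 of the 25, INSIG1 (adjusted p = 0.00111) and SCD (adjusted p = 0.0355), whose falls were smaller in MOLM-14. That difference was called for 1.02% of all probe sets.

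**Figure D3:**
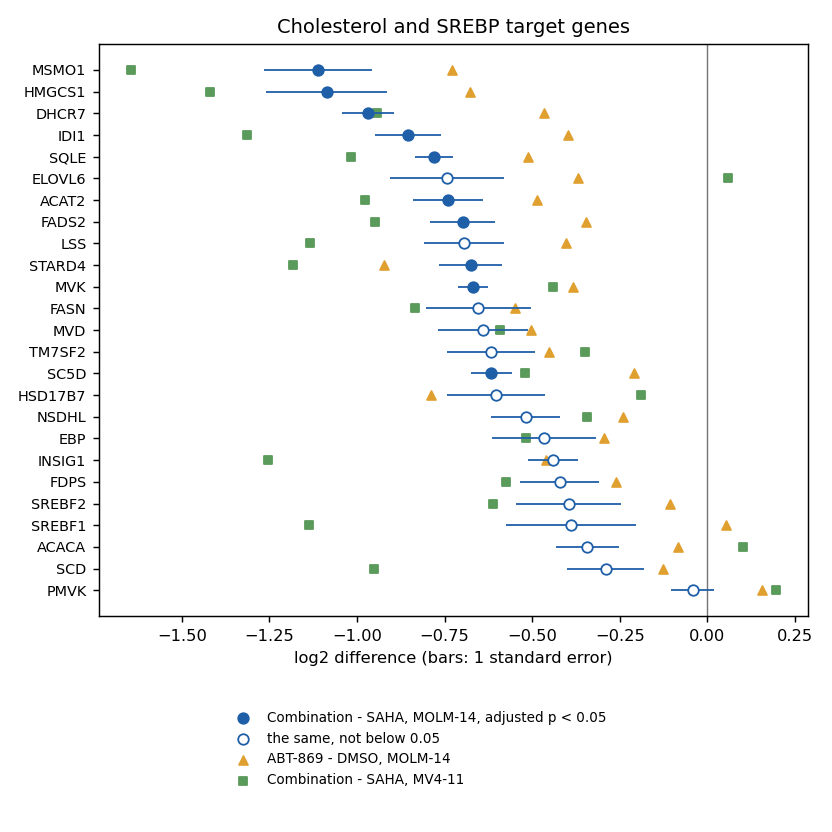
Log2 difference of each of the 25 cholesterol and SREBP target genes (rows) for the Combination minus SAHA in MOLM-14, with its standard error, beside ABT-869 minus DMSO in MOLM-14 and the Combination minus SAHA in MV4-11. All 25 MOLM-14 Combination values lie left of 0, from PMVK at -0.04 to MSMO1 at -1.11.

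Among the receptors that ABT-869 is known to inhibit, FLT3 itself was not lower. FLT3 read 11856, 12592 and 11990 in SAHA and 12732, 13032 and 12673 in the Combination. The FLT3 arrays did not overlap, with the Combination higher, and the log2 difference was 0.08 (adjusted p = 0.491). FLT1, a VEGF receptor, read 409.7, 504.9 and 440.6 in SAHA and 193.1, 144.4 and 154.2 in the Combination (log2 difference -1.47, SE 0.183, adjusted p = 0.0228), and was also lower with ABT-869 than with DMSO, at 74.7, 82.7 and 92.2 against 273.1, 253.3 and 174.3. Its fall was -1.47 in each of these MOLM-14 comparisons, and the departure from additivity was -0.0006. A second FLT1 probe set differed by -1.28 without passing (adjusted p = 0.0718). The FLT1 call was kept in 7 of the 12 fits that left out an array and was lost without any SAHA array or without Combination replicate 2 or 3. By the probe set that stood for each of the 10 receptors 0 were called, KIT at 0.54 (adjusted p = 0.277) being the largest positive value. Of all probe sets tested, 0.258% were called lower and 0.104% higher, so 0 calls do not set the receptors apart.

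Of 17 genes in the list of STAT5 targets, 3 were called lower (SOCS1, CISH and CCND3) and 0 higher, and the median was -0.17. Over all probe sets 0.258% were called lower and 0.104% higher. SOCS1, a feedback inhibitor of JAK kinases, read 1814, 2383 and 2024.2 in SAHA and 921.8, 833.8 and 900.6 in the Combination (log2 difference -1.22, SE 0.145, adjusted p = 0.0201). CISH, another feedback protein of the cytokine receptors, read 2790.2, 2806.2 and 2995.6 in SAHA and 1475.1, 1535.8 and 1528.9 in the Combination (log2 difference -0.92, SE 0.108, adjusted p = 0.0189). The groups of both genes did not overlap, as in every called probe set, and 3 CISH probe sets and 2 SOCS1 probe sets were called. CCND3, the cyclin D3 gene, went from 11033, 11804 and 10993 to 8695.8, 9511.8 and 9151.6 (log2 difference -0.31, adjusted p = 0.0442), a call kept in 1 of the 12 fits that left out an array (adjusted p of up to 0.128). PIM1, a kinase gene that STAT5 induces, read 4000.4, 4795.7 and 4435.4 in SAHA and 2894.5, 3449.5 and 2739.2 in the Combination, a log2 difference of -0.55 that did not pass (adjusted p = 0.228). The PIM1 groups did not overlap. With ABT-869 alone PIM1 went from 1748.9, 1573.5 and 2317.6 to 626.9, 619.8 and 681.5 (log2 difference -1.53, adjusted p = 0.0124), and the MOLM-14 Combination arrays stood above every DMSO array. MYC, also in the list, was at 0.24 (adjusted p = 0.276).

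With ABT-869 against DMSO the STAT5 list had 3 genes called lower and a median of -0.16, and in MV4-11 the Combination against SAHA had 6 called lower, 1 called higher and a median of -0.32. Of all probe sets, 0.156% were called lower with ABT-869 against DMSO. In the MV4-11 comparison 3.13% were called lower and 2.92% higher. The fall of CISH was -0.89 with ABT-869 alone (adjusted p = 0.0237) and -1.79 in MV4-11, and the difference between the lines was called (adjusted p = 0.0143). For PIM1 the MV4-11 value was -1.88 and the difference between the lines was called too (adjusted p = 0.00216). SOCS1 was at -1.93 in MV4-11, with an adjusted p of 0.079 for the difference between the lines. The SOCS1 call was lost without SAHA replicate 2 or 3, and the CISH call by the probe set given was lost without any SAHA array, with adjusted p-values of up to 0.0729 and 0.075.

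Sites of the STAT5 type are shown for CISH because its promoter is a textbook target of STAT5. The letters TTCNNNGAA, which the reverse complement leaves the same, were found in the windows of 2 of 12 STAT5 targets with a window (CISH and BCL6, 16.7%), in 8.09% of all genes and in 0 of 22 cholesterol genes. In CISH there were 4 matches in pairs, in capitals below, with first bases at -241 and -230 and at -129 and -112 from the transcript start (RefSeq, GRCh38.p14). Both stretches also lie within MAPKAPK3, annotated on the other strand.

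CISH chr3:50611996-50612015, minus strand: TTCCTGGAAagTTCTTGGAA
CISH chr3:50611878-50611903, minus strand: TTCTAGGAAgacgctgcTTCCGGGAA

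In the list of ERK feedback and immediate early genes, 1 of 22 measured genes was called lower (EGR1) and 0 higher, and the median was -0.15. Over all probe sets 0.258% were called lower and 0.104% higher. EGR1, a zinc finger factor that ERK induces within minutes, read 858.5, 710.6 and 772.9 in SAHA and 377.2, 241.5 and 278.7 in the Combination (log2 difference -1.41, SE 0.193, adjusted p = 0.0306). A second EGR1 probe set read 439.1, 442.2 and 395.7 in SAHA and 217.4, 173.7 and 185.4 in the Combination (log2 difference -1.15, SE 0.113, adjusted p = 0.00974). With ABT-869 alone the second probe set read 179.3, 205.5 and 228.4, against 516.2, 552.7 and 465.9 with DMSO, so its Combination and ABT-869 arrays overlapped. EGR3, its relative, read 224.4, 293.7 and 291 in SAHA and 97.7, 31.9 and 55.9 in the Combination, and its log2 difference of -2.26 did not pass (adjusted p = 0.0786), its Combination arrays being widely spread. In MV4-11 EGR1 was at -0.60 (adjusted p = 0.318) by the first probe set and at 0.03 by the second. The first EGR1 call was kept in 4 of the 12 fits that left out an array and reached an adjusted p of 0.108, and the second was lost only without SAHA replicate 2 (adjusted p = 0.053). MAP2K1, which encodes the kinase MEK1 upstream of ERK, was called lower at -0.34 (adjusted p = 0.012), a gene outside the list that was named after its value was seen, and this call was lost without SAHA replicate 2 or 3 (adjusted p of up to 0.0566).

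**Figure D4:**
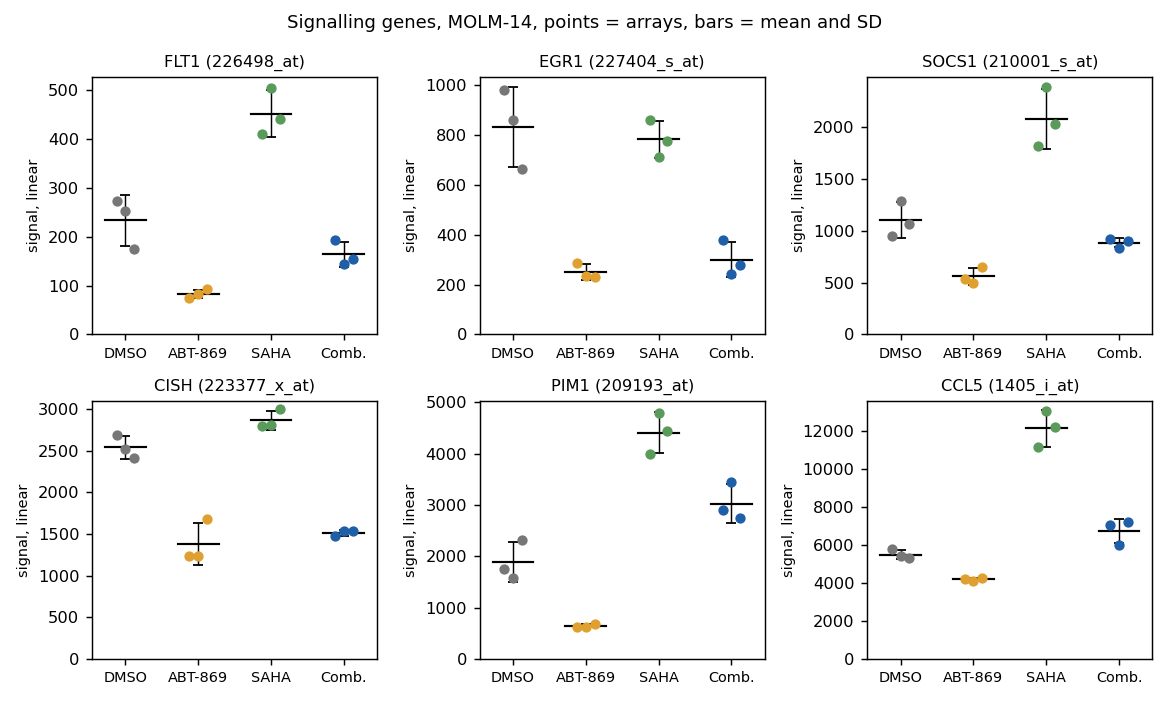
Signal on each of the 12 MOLM-14 arrays (vertical axis, array intensity) for FLT1, EGR1, SOCS1, CISH, PIM1 and CCL5, grouped by treatment, with 1 point per array and bars for the group mean and SD (n = 3). SOCS1 Combination points lie at 833.8 to 921.8, below the SAHA points at 1814 to 2383, and the PIM1 and CCL5 Combination points lie above the DMSO points.

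The chemokine CCL5, the receptors CCR1 and GPR84 and the G protein regulators RGS16 and RGS1 were each called lower, and apart from CCL5 and RGS1 they were named after their values were seen. CCL5, a chemokine that attracts T cells and monocytes, read 11135, 13052 and 12231 in SAHA and 7023.5, 6004.3 and 7195.3 in the Combination (log2 difference -0.85, SE 0.0779, adjusted p = 0.00779). Its level was 5306.6 to 5778.8 with DMSO and 4086 to 4253.3 with ABT-869, so the Combination stayed above both, and 3 CCL5 probe sets were called. The receptor of CCL5 and other chemokines, CCR1, went from 2150.4, 2442.4 and 2268.9 to 1501.8, 1474.7 and 1607.2 (log2 difference -0.58, adjusted p = 0.00979). GPR84, a receptor for medium-chain fatty acids on myeloid cells, read 3525.6, 3324.9 and 3380.1 in SAHA and 1720.8, 1884.1 and 1875.8 in the Combination (log2 difference -0.90, adjusted p = 0.00779), and was also called with ABT-869 alone, at -0.97 (adjusted p = 0.0064). The 3 genes were kept in each of the 12 fits that left out an array. RGS16 and RGS1 shorten signals of G protein coupled receptors. RGS16 went from 5506.4, 5984.8 and 6180.2 to 3494, 3009.1 and 3310 (log2 difference -0.85, adjusted p = 0.0293), and RGS1 from 414.7, 566.3 and 431.9 to 219.2, 133.9 and 208.5 (log2 difference -1.35, adjusted p = 0.0491). The RGS16 call was kept in 6 of the 12 fits and the RGS1 call in 0, with adjusted p-values of up to 0.105 and 0.146. Of 15 measured genes in the chemokine and cytokine list, which holds no receptor, CCL5 alone was called, and the median was 0. The share of all probe sets called lower was 0.258%. The inflammatory cytokine TNF read 1547.4, 1134 and 1291.6 in SAHA and 945.5, 766.8 and 656.5 in the Combination, a difference of -0.75 that did not pass (adjusted p = 0.135).

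Other falls came from genes outside these groups. STON1, an endocytic adaptor, read 668.6, 697.7 and 638.7 in SAHA and 293.9, 314.1 and 319 in the Combination (log2 difference -1.11, adjusted p = 0.0219). Its mean was 312.3 with DMSO, and the call was lost without any SAHA array (adjusted p of up to 0.0812). CEBPD, a transcription factor of myeloid differentiation, went from 1479.7, 1363.6 and 1452.7 to 1060.2, 1067.8 and 996.5 (log2 difference -0.46, adjusted p = 0.0107). CEBPD was kept in all 12 fits that left out an array. INHBA, a subunit of activin, read 140.7, 84.5 and 73.6 in SAHA and 26, 9.4 and 21.7 in the Combination (log2 difference -1.58 with the floor, adjusted p = 0.0379), and NEDD4L, a ubiquitin ligase, read 96.7, 59.4 and 116.7 in SAHA and 17.2, 19.2 and 15.5 in the Combination (log2 difference -1.45 with the floor, adjusted p = 0.0442). All Combination arrays of both genes were under 32, so these values are low estimates of the fall. The remaining named falls at the head of the ranking were RETREG1 at -1.60, ZYG11A at -1.40 and the noncoding RNA LINC03040 at -1.01, besides the second probe sets of SQLE and DHCR7 at -1.01. RETREG1 went from a mean of 97.23 to 10.43 and ZYG11A from 97.4 to 28.57, so both end under the floor of 32. With ABT-869 against DMSO these 2 genes were at 0.22 and 0.19, and in MV4-11 at -0.02 and 0.31. LINC03040 was at -0.64 and -1.10 in those comparisons. Left out 1 at a time, the arrays kept the calls of INHBA, NEDD4L and ZYG11A in 2, 1 and 6 of the 12 fits (adjusted p of up to 0.101, 0.146 and 0.0782), and those of RETREG1 and LINC03040 in 11, all but the fit without SAHA replicate 2 (adjusted p = 0.0515 and 0.0556).

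Glycolysis and hypoxia-responsive genes had a smaller shift in the same direction. Of 23 measured genes 3 were called lower (PDK1, PFKP and BNIP3) and 0 higher, 11 were lower at an unadjusted p under 0.05, 19 lay below 0 and the median was -0.13. Among all probe sets above the median level, 6.84% were lower at that unadjusted p and 43.1% lay below 0, and 0.258% of all probe sets were called lower. PDK1, which keeps pyruvate out of the mitochondrion, read 6655.1, 6547.7 and 6620 in SAHA and 4648.1, 4108.8 and 4094.3 in the Combination (log2 difference -0.63, adjusted p = 0.0117). PFKP, a subunit of the glycolytic enzyme phosphofructokinase, differed by -0.47 (adjusted p = 0.017). BNIP3, a mitophagy receptor, went from 12556, 13774 and 11301 to 8848.1, 6912.4 and 8478.8 (log2 difference -0.64, adjusted p = 0.0482). The groups of PDK1 and of BNIP3 did not overlap, as in every called probe set. The calls of PDK1 and PFKP were lost without SAHA replicate 2 or 3, with adjusted p-values of up to 0.0566 and 0.0731. BNIP3 was kept in 1 of the 12 fits. The largest differences in the list, ENO2 at -0.94 (adjusted p = 0.0902) and PFKFB4 at -0.81 (adjusted p = 0.0773), did not pass. With ABT-869 alone the median was -0.22 with 2 genes called lower, and in MV4-11 it was -0.33 with 11 called lower. The shares of all probe sets called lower in these comparisons were 0.156% and 3.13%. AK4, a mitochondrial adenylate kinase known to respond to hypoxia and named after its values were seen, went from 2256.2, 2167.9 and 2176.5 to 1277.7, 1230.2 and 1377.9 (log2 difference -0.77, adjusted p = 0.00779).

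Genes of DNA replication lay mostly below 0 in the Combination, but 0 passed the adjusted test. Of 44 genes, 40 lay below 0, 23 were lower and 0 higher at an unadjusted p under 0.05, 0 were called by limma, and the median was -0.28. Among all probe sets above the median level, 43.1% lay below 0, and 6.84% were lower and 7.58% higher at that unadjusted p. The shares of all probe sets called were 0.258% lower and 0.104% higher. CDC6, which loads the replicative helicase, read 627.7, 492.6 and 502.7 in SAHA and 389.1, 290.4 and 253.3 in the Combination, a difference of -0.81 (adjusted p = 0.117) between groups that did not overlap. CDC45, a part of that helicase, was at -1.19 (adjusted p = 0.467) and WDHD1, which couples it to the polymerase, at -0.60 (adjusted p = 0.0592). The list already stood lower with SAHA, with a median of -0.94 against DMSO. With ABT-869 against DMSO the list median was 0.08 and 11 of 44 lay below 0, against 51.9% of all probe sets above the median level. The departure from additivity had a median of -0.41 with 0 of 44 called, where 0.0256% of all probe sets were called. In MV4-11 the list median was -0.16 with 7 called lower and 1 higher, where 3.13% of all probe sets were called lower and 2.92% higher. BLM, a helicase of homologous recombination, was the only gene called in its list of 19, at -0.37 (adjusted p = 0.0494), and the call was kept in 1 of the 12 fits that left out an array, with an adjusted p of up to 0.151.

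Mitotic genes separated the lines. In MOLM-14, 0 of 39 mitotic genes were called, 2 were lower and 1 higher at an unadjusted p under 0.05, and the median was -0.01, with values between -0.27 and 0.21. Among all MOLM-14 probe sets above the median level, 6.84% were lower and 7.58% higher at that unadjusted p. The shares of all probe sets called in MOLM-14 were 0.258% lower and 0.104% higher. In MV4-11, 35 of the 39 were called lower and the median was -0.86, where 3.13% of all probe sets were called lower and 2.92% higher. The difference between the lines, tested as an interaction over all 24 arrays, was called for 27 of the 39, where 555 probe sets were called in all (1.02%), 314 with the higher value in MOLM-14 and 241 with the lower. PLK1, a mitotic kinase, differed between the lines, but in MOLM-14 it lay at the upper end of the list. PLK1 read 1386.2, 1234.1 and 1115.5 in SAHA and 1414.1, 1458.9 and 1432.9 in the Combination in MOLM-14, against 905.2, 1062.6 and 1118.6 in SAHA and 479.3, 583.9 and 530.9 in the Combination in MV4-11 (adjusted p = 0.000934 for the difference between the lines). The PLK1 Combination arrays were the higher ones in MOLM-14 and the lower ones in MV4-11. The list as a whole did not rise in MOLM-14, where 21 of the 39 genes lay below 0. Metallothioneins, which bind zinc and copper, differed in the same sense: the median was 0.23 in MOLM-14, with 0 of 7 called and 5 higher at an unadjusted p under 0.05, and -0.78 in MV4-11, with 6 called lower and the difference between the lines called for 6. MT1X read 4604.4, 4667.7 and 4697.5 in SAHA and 5900.7, 5544.4 and 5813.5 in the Combination in MOLM-14 (log2 difference 0.30, adjusted p = 0.281).

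**Figure D5:**
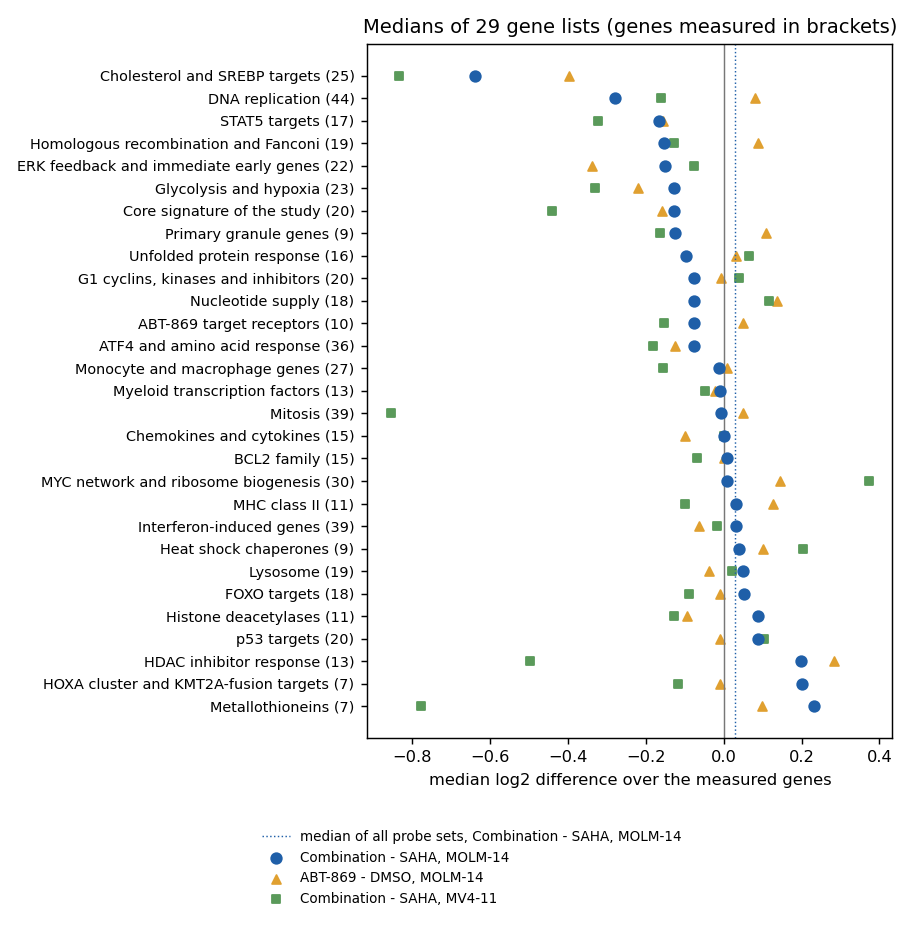
Median log2 difference of each gene list (rows) for the Combination minus SAHA in MOLM-14, ABT-869 minus DMSO in MOLM-14 and the Combination minus SAHA in MV4-11. The cholesterol and SREBP list has the lowest MOLM-14 Combination median, -0.64, and the mitosis list separates the lines, at -0.01 and -0.86.

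Rises were led by weakly expressed genes. HLA-DOA, which tunes peptide loading onto MHC class II molecules, read 13.8, 14.1 and 14.8 in SAHA and 75.9, 59 and 71.4 in the Combination (log2 difference 1.10 with the floor, adjusted p = 0.00351). It was under 32 on every DMSO and ABT-869 array, and its call was kept in all 12 fits that left out an array. By the brightest probe set of each gene, 0 of the 11 genes in the MHC class II list were called, HLA-DOA included, so its rise rests on a dimmer probe set. Of all probe sets tested, 0.104% were called higher. SCART1, a scavenger receptor gene, read 27.5, 32.9 and 16.8 in SAHA and 92.7, 95.9 and 120.5 in the Combination (log2 difference 1.66, adjusted p = 0.0248). PDE1B, a cyclic nucleotide phosphodiesterase, read 22.4, 10 and 26.6 in SAHA and 75.2, 130.2 and 89.6 in the Combination (log2 difference 1.58, adjusted p = 0.0107). The SAHA values of these genes lie under or near the floor of 32. OGA, the enzyme that removes O-linked GlcNAc from proteins, read 63, 42.1 and 67.3 in SAHA and 202.5, 166.4 and 144.9 in the Combination by a dim probe set (log2 difference 1.59, adjusted p = 0.0459). The other leading rises, from TMEM45B at 1.41 to ITPRID2 at 0.95, included SHH at 1.03, GATA3 at 1.02 and AVIL at 1.13. Besides HLA-DOA, the 14 leading rises were kept in 1 to 11 of the 12 fits that left out an array, with PDE1B kept in 11, SCART1 in 7 and OGA in 1 (adjusted p of up to 0.0545, 0.0855 and 0.118), and, TMEM45B apart, they were lost without SAHA replicate 2. The fit that left dim probe sets out removed 30 of the 57 rises and 9 of the 141 falls, and of those it still tested it called 17 rises and 92 falls.

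A smaller set of rises was read at high signals. EMB, an immunoglobulin-type adhesion protein, read 10325, 11287 and 11024 in SAHA and 14096, 14137 and 13421 in the Combination (log2 difference 0.35, adjusted p = 0.0219). ITGA4, the alpha subunit of the VLA-4 integrin, read 2430.9, 2211.6 and 2265.3 in SAHA and 3314.4, 3206.2 and 3071.4 in the Combination (log2 difference 0.47, adjusted p = 0.0293). ZMAT3, an RNA-binding p53 target, read 666.8, 690.5 and 693.1 in SAHA and 1094.3, 1232.7 and 922.2 in the Combination by 1 of its probe sets (log2 difference 0.65, adjusted p = 0.0429). The groups of these 3 genes did not overlap, as in every called probe set, and the genes were named after their values were seen. HYLS1, a centriole protein, had a small and even rise, from 569.9, 577.6 and 591.9 to 714.5, 682.3 and 700.7 (log2 difference 0.27, adjusted p = 0.00779), and was kept in all 12 fits that left out an array. ZMAT3 was kept in 1 of those fits (adjusted p of up to 0.142), EMB in 8 (up to 0.0716) and ITGA4 in 6 (up to 0.103). DLX5, a homeobox gene, was at 0.59 (adjusted p = 0.0491) and ZEB2, a zinc finger repressor, at 0.52 (adjusted p = 0.0417), each kept in 1.

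In the lists of p53 targets, of genes that respond to histone deacetylase inhibition and of HOXA cluster and KMT2A-fusion targets, 0 genes were called by the probe set that stood for each, although other probe sets of ZMAT3 and ZEB2 were called higher, as given above. Of all probe sets tested, 0.258% were called lower and 0.104% higher. The p53 targets had a median of 0.09 with 4 of 20 higher and 0 lower at an unadjusted p under 0.05. At that threshold 7.58% of all probe sets above the median level were higher and 6.84% lower. AEN, a nuclease that p53 induces, read 117.9, 69.2 and 149.9 in SAHA and 294.3, 288 and 183.1 in the Combination (log2 difference 1.22, adjusted p = 0.17). The AEN groups did not overlap, but their spread was wide. Genes that respond to histone deacetylase inhibition had a median of 0.20 with 5 of 13 higher, among them the histone gene H2AC6 at 0.77 (adjusted p = 0.476) and H2BC12 at 0.64 (adjusted p = 0.0928), and HOXA cluster and KMT2A-fusion target genes had a median of 0.20 with 5 of 7 higher and 1 lower. In the BCL2 family, which sets the threshold for apoptosis, 0 of 15 were called, which does not set it apart at the called shares given above. BCL2L11, the pro-apoptotic BIM gene, was at 0.35 (adjusted p = 0.28), BCL2 at -0.22 and BCL2A1 at -0.77 (adjusted p = 0.167).

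How far the addition of ABT-869 differed between the SAHA and the DMSO background was tested as the departure from additivity, and few probe sets passed. Of all probe sets, 14 were called (0.0256%), 5 upwards and 9 downwards, and the median standard error of this contrast above the median signal was 0.212, against 0.15 for the Combination minus SAHA. ZSCAN30, a zinc finger gene, went down with ABT-869 on DMSO, from 70.1, 106.1 and 75.6 to 15.8, 18.6 and 19, and up with ABT-869 on SAHA, from 33.9, 32.1 and 37.5 to 75.7, 109.6 and 66.3 (departure 2.62, adjusted p = 0.0437). HLA-DOA rose only on SAHA by the dim probe set given above (departure 1.10, adjusted p = 0.034), and its brightest probe set was not called in this test. BID, a BH3-only activator of apoptosis, was measured at high signals in all groups. It rose with ABT-869 on DMSO, from 1827.7, 1719.6 and 1832.4 to 2409.5, 2377.7 and 2328.5, and on SAHA went from 2053.8, 2013.6 and 2004.5 to 2061.5, 2078.7 and 2076.7 (departure -0.37, adjusted p = 0.034). TOR1A, a chaperone-like ATPase, fell on SAHA at -0.17 (adjusted p = 0.0248) and was at 0.14 on DMSO (adjusted p = 0.0531), with a departure of -0.31 (adjusted p = 0.034). With an array left out, the count of departure calls ran from 4 to 69. No call of this kind was made with dim probe sets left out, where 2989 had an unadjusted p under 0.05.

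Of the probe sets called in the Combination against SAHA, 130 of the 141 falls had the same sign with ABT-869 against DMSO and 33 of them were called there, with a median of -0.35 against -0.64. Of the 57 rises, 32 had the same sign and 6 were called, with a median of 0.02 against 0.69. In ABT-869 against DMSO, 45.5% of all probe sets and 51.9% of those above the median level lay below 0. Called there were 0.156% of all probe sets lower and 0.13% higher. Across the 27306 probe sets above the median level the correlation between the Combination minus SAHA and the ABT-869 minus DMSO differences, which share no arrays, was -0.03. In MV4-11, 128 of the 141 falls had the same sign and 87 were called with it. Of the 57 rises, 42 had the same sign in MV4-11, with 14 called. In that line 41.2% of all probe sets and 46.5% of those above the median level lay below 0. Called there were 3.13% of all probe sets lower and 2.92% higher. The correlation with the MOLM-14 differences across the 27306 probe sets above the median level was 0.32. Genes are not independent replicates, and these correlations are descriptions. The difference between the lines was called for 16 of the 141 falls and 3 of the 57 rises, against 1.02% of all probe sets. Among the genes leading that difference, TNF had lower signals with the Combination in MOLM-14, as given above, and went from 684, 722.4 and 743.8 to 1647.6, 1433.6 and 2137.5 in MV4-11 (difference -2.01, adjusted p = 0.000612). PFAS, an enzyme of purine synthesis, went from 2024.9, 1568.9 and 1951.3 to 1205.7, 1618 and 1562.4 in MOLM-14 and from 1572.2, 1606.9 and 1765.4 to 2811.8, 3147.9 and 2993.3 in MV4-11 (difference -1.20, adjusted p = 0.00212). The MOLM-14 groups of PFAS overlapped and the MV4-11 groups did not.

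Of the 20 genes that the study named as a core signature, which were chosen on these samples and give no independent evidence of direction, 4 were called lower with the Combination than with SAHA (HMGCS1, PTP4A3, ACAT2 and CBS) and 0 were called higher. Of all probe sets, 0.258% were called lower and 0.104% higher. The study chose them by a 2-fold rule against DMSO, as changes unique to the Combination in both lines. That is another comparison and another threshold than those used here. PTP4A3 encodes the phosphatase PRL-3. It read 1655.7, 1709.4 and 1636.1 in SAHA and 1061.4, 928.7 and 873.5 in the Combination (log2 difference -0.81, SE 0.119, adjusted p = 0.039). The groups did not overlap, as in every called probe set. The values are those of the brighter PTP4A3 probe set, and the probe set that the study listed for PTP4A3 was at -1.05 without passing (adjusted p = 0.105). ACAT2, a thiolase at the start of sterol synthesis, read 8174.4, 7351.7 and 7216.3 in SAHA and 5136.7, 4153.2 and 4361.6 in the Combination (log2 difference -0.74, adjusted p = 0.03), and CBS, an enzyme of the transsulfuration route, was at -0.58 (adjusted p = 0.0491). PTP4A3 and ACAT2 were each kept in 4 of the 12 fits that left out an array and CBS in 2, with adjusted p-values of up to 0.129, 0.0983 and 0.156. The study listed FRY, LMO4, IFI16 and ACADSB as raised and the others as lowered, so a median over the 20 mixes both directions. The median of the 20 was -0.13, 7 were lower at an unadjusted p under 0.05 and FRY, at 0.54 (adjusted p = 0.108), was the only one higher. At that unadjusted threshold 6.84% of all probe sets above the median level were lower and 7.58% higher.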

How the data were processed

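MOLM-14 and MV4-11 cells were profiled on Affymetrix U133 Plus 2.0 arrays, 1 per culture, with 3 arrays in each of the 4 groups of a line, 24 in all. The authors deposited linear intensity values, 1 per probe set, scaled on each array to a common mean (500.06 to 500.07 with 2% trimmed at each end, checked from the values). The software behind them is not stated in the labels or the methods. Depth does not apply to arrays, and their number limits the precision. Groups were taken from the sample labels, and the methods call the replicates biological triplicates.

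Log2 was taken of the signals after values under 32 had been set to 32, without renormalizing the arrays. Of 54675 probe sets, 62 controls were dropped, which left 54613 for testing. Of these, 41091 name 1 gene in the platform annotation (41037 found by gene identifier, 54 not, 19775 genes), 1801 name several and 11721 are unnamed here. Probe sets naming several genes are not named in the text. limma 3.58.1 in R 4.3.3 was fitted over the 12 MOLM-14 arrays and 4 groups, and over the 24 arrays and 8 groups for the difference between the lines, with Benjamini-Hochberg adjustment over all probe sets. On simulated data with known changes the fit called 148 probe sets, 21 of them unchanged (54613 probe sets run). It found 18%, 64%, 84% and 88% of those changed by 0.5, 1, 1.5 and 2 on the log2 scale in the Combination minus SAHA. The changes were placed only in probe sets with SAHA signals well above the floor, and the noise was drawn independently for each probe set. These shares therefore do not describe weakly expressed probe sets, such as most of the rises.

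The comparison, its gene lists and the genes named were chosen with earlier results of these data known. Named genes are the 14 largest rises and 14 largest falls that pass and whose higher group lies above the median level, the 2 largest in each direction per list at an unadjusted p under 0.05, the ABT-869 receptors, the core signature and the 5 largest in each direction of the departure and of the difference between the lines. Other members of the cholesterol list and the genes whose calls were kept whichever array was left out were named after their values were seen. Promoter windows and sequences are from RefSeq (GRCh38.p14). Alternatives were the floor (1 or 64), quantile normalization, centring of the arrays, dim probe sets left out, limma-trend, other sets of arrays in the fit, the replicate number as a block and each array left out. A fit without the 2 arrays with the largest deviation from their group (Combination replicate 1 and DMSO replicate 3) was chosen after seeing the data.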

Additional observations from a re-analysis of the deposited data

Results flagged for a closer look

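The difference between the lines in what ABT-869 added to SAHA was itself tested and was called for 555 probe sets. The leading genes, given as the MOLM-14 difference minus the MV4-11 difference on the log2 scale, were higher in MOLM-14 for JPH2 at 3.38, APOL4 at 2.58, DPEP2 at 2.24, ABCA1 at 2.21 and ADHFE1 at 2.15. They were lower in MOLM-14 for NEDD4L at -2.39, EGR3 at -2.21, TNF at -2.01, VTI1A at -1.24 and PFAS at -1.20. APOL4, an apolipoprotein L gene, read 527.3, 500 and 466.8 in SAHA and 351.5, 280.4 and 395.2 in the Combination in MOLM-14, and 409.2, 409.1 and 381.9 in SAHA and 44.2, 58.4 and 36.8 in the Combination in MV4-11, so both lines went down and MV4-11 the further. ABCA1, the cholesterol exporter, read 125.7, 91 and 43.7 in SAHA and 184.2, 186.1 and 156.4 in the Combination in MOLM-14, and 319.2, 343.3 and 211.2 in SAHA and 108.6, 155.6 and 149.2 in the Combination in MV4-11. JPH2 and NEDD4L were under 32 in several groups, and their differences are set in part by the floor.

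The effect of ABT-869 in MOLM-14 differed between the SAHA and the DMSO background for 14 probe sets, by a test of that difference. ZSCAN30 at 2.62 and HLA-DOA at 1.10, by a probe set other than its brightest, were the leading named genes upwards. BID at -0.37 and TOR1A at -0.31 were those downwards. No explanation was tested for these results.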

How the results depend on the processing

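The Combination minus SAHA gave 198 calls, and between 37 and 216 with each array left out in turn, the lowest without SAHA replicate 2. It gave 8 with a floor of 1 (5 higher and 3 lower), 128 with a floor of 64, 75 with only the 6 arrays compared and 96 with the replicate number as a block. The 8 and the 75 include probe sets that were not among the 198. The departure from additivity gave 14 calls, 4 to 69 with an array left out, 8 with all 24 arrays, 0 with dim probe sets left out, 7 with a floor of 1, 3 with the replicate block and 81 without the 2 arrays that stood apart. ABT-869 minus DMSO gave 156 calls, 60 to 235 with an array left out, 57 with dim probe sets left out, 9 with a floor of 1, 86 with a floor of 64, 9 with only the 6 arrays compared and 32 with the replicate block. The difference between the lines gave 555 calls, 296 to 621 with an array left out and 127 with a floor of 1. In the remaining alternatives these counts stayed within 1.5 times. The causes were not tested, except that fewer arrays in a fit leave fewer degrees of freedom.

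Of the 124 probe sets named by the rule given with the processing, 0 changed direction under any alternative. Of the 36 called, 35 lost the call with a floor of 1, 31 without SAHA replicate 2, 30 with only the 6 arrays compared, 21 with the replicate block, 17 with a floor of 64 and 11 with quantile normalization. CCL5, CEBPD and HLA-DOA were the 3 of these 36 kept in all 12 fits that left out an array, and over all 198 calls 25 were kept. The median of the cholesterol list stayed between -0.675 and -0.605, and of 667 list medians recomputed 2 moved by more than the median standard error of 0.15. Deviations of same-numbered arrays correlated at -0.07 to 0.33, and those of arrays with other numbers at -0.33 to 0.28. These values do not settle whether the replicate numbers pair the samples, so the calls lost under the block are given without a reading. Weak signals limit the rises: values under 32 have no order, and 30 of the 57 rises lie at or below the median level.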
